A study of Homo sapiens with 6 samples.

Results

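The 10 genes described here encode histone chaperones that place histone H3-H4 on DNA, namely HIRA, UBN1, UBN2, CABIN1, DAXX, ATRX, ASF1A, ASF1B, CHAF1A and CHAF1B. They were chosen by name, with earlier results of these data known, and all 10 were found among the 58735 genes of the expression table. Of these, 6 belong to replication-independent deposition, 2 to replication-coupled deposition, and the ASF1 pair serves both routes. The libraries came from HCT116, a human colorectal carcinoma cell line, and were made from total RNA of 3 control-transfected cultures (CTR) and 3 cultures transfected with 50 nM miR-8485 mimics, each labelled as an independent biological replicate. A mimic is a synthetic RNA meant to act as the mature miRNA, and it was added to wild-type cells that were collected 48 h later. Whether the 17 bases that the study's supplementary methods give for it match the whole mature miRNA was not checked. The sequence and the dose of the control transfection are not given in the sources used here.

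Newly made or evicted histones do not reach DNA unassisted but are passed along a chain of chaperones. ASF1 binds an H3-H4 dimer and hands it on. The CAF-1 complex, built from CHAF1A, CHAF1B and RBBP4, receives it at the replication fork through the sliding clamp PCNA and deposits the canonical H3 that is made in S phase. Outside replication, the replacement variant of H3 is deposited by the HIRA complex, in which HIRA is joined by an ubinuclein (UBN1 or UBN2) and CABIN1, mainly at active genes and regulatory elements. The DAXX-ATRX pair deposits the same variant at telomeres and pericentric heterochromatin.

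A miRNA finds its targets mainly through its seed, bases 2 to 8. The mimic, as written in the study's supplementary methods, and the annotated sites of the members are shown because they define which chaperone mRNAs could pair with the seed. Capitals mark the seed in the mimic and its match, TGTGTGT, in the 3′ UTRs. Only copies that lie whole within the 30 bases shown are in capitals, and the UBN2 run continues beyond them. The sites were read from the reference transcripts (GENCODE release 44, GRCh38) and are written 5′ to 3′ on the mRNA strand.
miR-8485 mimic: cACACACAcacacguau
UBN2, chr7:139304700-139304729, plus strand: tgatagggTGTGTGTGTGTGTGTGTGTGTg
CHAF1B, chr21:36417305-36417334, plus strand: cacaagtaTGTGTGTatatatatatttttt
ATRX, chrX:77505471-77505500, minus strand: gaagtccaTGTGTGTttgtgttagttttgg
UBN2 stood apart from the other members in this respect. Its 3′ UTR (chr7:139297837-139308236, plus strand) held 19 overlapping copies of the match, and the longest run of alternating T and G measured 34 bases. Only 0.712% of the 10676 tested genes with an annotated 3′ UTR held at least as many copies, and 0.984% had a 3′ UTR at least as long as its 10400 bases. CHAF1B held 1 copy in 2649 bases. ATRX held 1 copy in the 3471 bases of the transcript tagged as canonical, and 0 in the 9745 bases of its longest annotated 3′ UTR, which belongs to another transcript. The other 7 members held 0 copies in both the longest and the canonical 3′ UTR. Across the tested genes, 31.4% held at least 1 copy in the longest 3′ UTR. Which 3′ UTRs the cells use was not measured.

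The deposited values were FPKM, a count of fragments scaled to the length of the gene and to the library's total, and between 17473874 and 18480047 fragments per library were recovered from them. CTR replicate 1 lay farther from its group than the other CTR libraries lay from each other, with a chi-square per gene of 9.60 and 7.74 against CTR replicates 2 and 3, which differed from each other by 2.96. In the miR-8485 group the chi-square per gene was 2.68 to 3.67. The epithelial markers EPCAM, KRT8, KRT18, KRT19 and CDH1 and the intestinal factor CDX2 had a summed level of 2613 to 2838 FPKM in CTR and 1751 to 1838 FPKM in miR-8485. The difference lay in KRT8, KRT18 and KRT19, which were called lower, while CDX2 rose from 16.0 ± 0.486 to 28.2 ± 1.18 FPKM (SD, n = 3 each) and EPCAM (-0.048) and CDH1 (-0.049 in log2) were not called. VIL1 was not above 0.032 FPKM in either group mean. Of 7 markers of other cell types, COL1A1 was the only one with a mean of at least 1 FPKM, and their summed level was 4.35 to 4.54 FPKM in CTR and 6.70 to 6.79 FPKM in miR-8485. COL1A1 had 4.25 FPKM in CTR and 6.31 FPKM in miR-8485, ALB had 0.0273 and 0.355 FPKM, and CD3E was listed at 0 in all 6 libraries. The part of these marker changes in the results was not tested. Differences between the groups were tested with limma on log2(FPKM + 0.1) for the 12349 genes with a mean of at least 1 FPKM, and a gene was called at a Benjamini-Hochberg adjusted p under 0.05. Rescaling to TPM, in which each library sums to the same total over genes, shifted the median change over the tested genes from -0.0041 to -0.12 in log2, so members with small changes shift downward on that scale, and the calls over all genes moved from 3769 lower and 3593 higher to 4725 lower and 2613 higher.

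Expression analysis revealed that the replication-coupled genes and ASF1B fell in the miR-8485 libraries, whereas no replication-independent gene was called. Of the 9 members that passed the filter, 3 were downregulated (CHAF1A, CHAF1B and ASF1B), 0 were upregulated and 6 were not called. Over all tested genes 30.5% were downregulated and 29.1% upregulated, with 59.6% called in either direction, so 3 of 9 downregulated lies near the background share. At an unadjusted p under 0.05, 3 of these 9 members were lower and 1, ASF1A, was higher. For the same 9, voom, limma's test for counts, called the same numbers on the recovered fragments. UBN2 had a mean just under 1 FPKM and was tested in the fit of all 31768 genes above 0. There 11.3% of genes were called lower and UBN2 was not called, with an unadjusted p of 0.0393 in limma. It was called lower by voom (adjusted p = 0.0054). The libraries of the 2 groups did not overlap for 4 of the 9 members in the lower direction and for 1 in the higher direction, where 34.0% and 32.5% of all tested genes did so (66.5% in either direction).

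**Figure D1:**
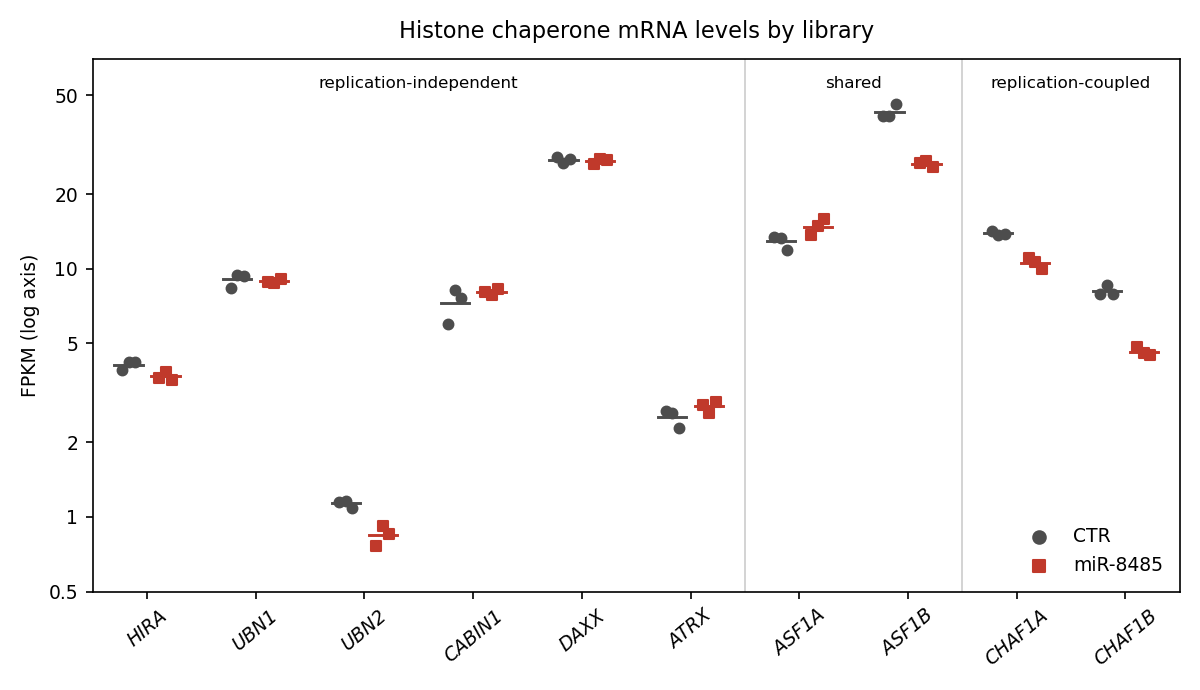
Level of each histone chaperone gene in FPKM on a log axis, with 1 point per library (circles CTR, squares miR-8485) and a bar at the mean of 3 libraries. The miR-8485 squares of CHAF1A, CHAF1B, ASF1B, UBN2 and HIRA lie below all CTR circles, those of ASF1A lie just above them, and those of UBN1, CABIN1, DAXX and ATRX overlap with CTR.

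CAF-1 was the complex with the clearest fall. CHAF1B, the WD-repeat subunit (hg38 chr21:36385378-36419015, plus strand), was measured at 7.89, 8.62 and 7.95 FPKM in CTR replicates 1 to 3 and at 4.82, 4.59 and 4.49 FPKM in miR-8485 replicates 1 to 3. The highest miR-8485 library thus lay well under the lowest CTR library. The means were 8.15 ± 0.406 FPKM and 4.63 ± 0.167 FPKM (SD, n = 3 each), or -0.80 ± 0.06 as log2 fold change with its SE (adjusted p = 3.4e-05 in limma). CHAF1A, the large subunit that binds PCNA (chr19:4402662-4445018, plus strand), had 14.2, 13.7 and 13.9 FPKM in CTR and 11.03, 10.61 and 9.99 FPKM in miR-8485. The 2 groups again did not overlap, and the change was -0.40 ± 0.05 in log2 with its SE (adjusted p = 5.0e-04 in limma). RBBP4, the small subunit, moved the other way and rose from 18.3 ± 1.01 to 25.8 ± 1.46 FPKM (SD, n = 3 each), a log2 fold change of 0.49 (adjusted p = 3.6e-04 in limma). RBBP4 is also a subunit of several deacetylase and Polycomb complexes. The listed span of CHAF1B shares 771 bases with the neighbouring gene MORC3 on the same strand, which was measured at 5.70 FPKM in CTR and 3.82 FPKM in miR-8485, and how fragments in the shared stretch were assigned was not tested.

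The ASF1 paralogs diverged. ASF1B, the form linked to proliferating cells (chr19:14119509-14136956, minus strand), had the highest level of all members in CTR, with 41.4, 41.4 and 46.3 FPKM, and fell to 26.6, 27.3 and 25.7 FPKM in miR-8485. The highest miR-8485 library was thus far under the lowest CTR library. The change was -0.69 ± 0.06 in log2 with its SE (adjusted p = 4.8e-05 in limma), which corresponds to a change of -38.3% in mean FPKM. ASF1A, the form that works with HIRA (chr6:118894220-118909167, plus strand), had 13.5, 13.3 and 11.9 FPKM in CTR and 13.6, 14.8 and 15.9 FPKM in miR-8485. The groups did not overlap but nearly touched, at 13.5 and 13.6 FPKM. The log2 fold change of 0.20 (standard error 0.07, 95% confidence interval 0.022 to 0.37) missed the threshold in limma (adjusted p = 0.0531). The same gene was called without CTR replicate 1 (0.23, adjusted p = 0.04996) and without miR-8485 replicate 1 (0.25, adjusted p = 0.0293), whereas TPM scaling lowered it to 0.082 (adjusted p = 0.463). The summed ASF1 level was 54.7 to 58.2 FPKM in CTR and 40.2 to 42.1 FPKM in miR-8485, and ASF1B made up 75.5% to 79.6% of it in CTR and 61.8% to 66.1% in miR-8485.

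In the HIRA complex no gene was called in the main limma fits, and UBN2 had the largest change (-0.39 in log2). HIRA, the scaffold of the complex (chr22:19330698-19447450, minus strand), had 3.90, 4.19 and 4.22 FPKM in CTR and 3.64, 3.83 and 3.57 FPKM in miR-8485. All 3 miR-8485 libraries lay under the CTR libraries, by little. The log2 fold change of -0.15 (standard error 0.07, 95% confidence interval -0.31 to 0.0040) missed the threshold (limma, adjusted p = 0.0846) and passed it after TPM scaling (-0.27, adjusted p = 0.0106). HIRA shares its listed span with C22orf39 on the same strand and with MRPL40 on the other, which had group means of 2.05 and 2.59 FPKM and of 17.3 and 20.2 FPKM in CTR and miR-8485, and how their fragments were separated was not tested.

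The ubinucleins, which bind the replacement histone within this complex, differed from each other in level. UBN1, the more abundant (chr16:4846665-4882360, plus strand), had 8.34, 9.46 and 9.38 FPKM in CTR and 8.84, 8.74 and 9.10 FPKM in miR-8485. The miR-8485 values fell inside the CTR range, and the log2 fold change of -0.025 had a 95% confidence interval of -0.17 to 0.12 (adjusted p = 0.754 in limma). Its span shares 678 bases with GLYR1 on the other strand, which was measured at 12.5 FPKM in CTR and 4.83 FPKM in miR-8485, and whether the counting used strand is not given in the sources used here. UBN2 (chr7:139230356-139308236, plus strand) had 1.15, 1.16 and 1.09 FPKM in CTR and 0.765, 0.914 and 0.852 FPKM in miR-8485. The groups did not overlap, and the values stood for 323 to 343 fragments in CTR and 225 to 271 in miR-8485. In the fit of all genes above 0 the log2 fold change of -0.39 (standard error 0.15, 95% confidence interval -0.75 to -0.026) missed the threshold (adjusted p = 0.136 in limma), and it was called by voom on recovered fragments (-0.43, adjusted p = 0.0054). CABIN1, the third partner (chr22:24011192-24178628, plus strand), had 5.996, 8.20 and 7.60 FPKM in CTR and 8.08, 7.83 and 8.27 FPKM in miR-8485. CTR replicate 1 was the lowest library, and the other 5 lay close together. The log2 fold change was 0.16 (95% confidence interval -0.098 to 0.42, adjusted p = 0.245 in limma) and 0.029 without CTR replicate 1.

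The DAXX-ATRX pair did not pass the test in either direction. DAXX, the chaperone itself (chr6:33318558-33323016, minus strand), had 28.1, 26.8 and 27.7 FPKM in CTR and 26.4, 27.8 and 27.4 FPKM in miR-8485. The groups overlapped, and the log2 fold change of -0.018 had the narrowest 95% confidence interval of the 10 genes, -0.12 to 0.084 (adjusted p = 0.741 in limma). ATRX, the SNF2-type remodeler that works with it (chrX:77504878-77786233, minus strand), had 2.67, 2.62 and 2.28 FPKM in CTR and 2.82, 2.62 and 2.92 FPKM in miR-8485. Its groups overlapped as well, with a log2 fold change of 0.14 (95% confidence interval -0.078 to 0.36, adjusted p = 0.227 in limma), or 0.073 without CTR replicate 3.

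**Figure D2:**
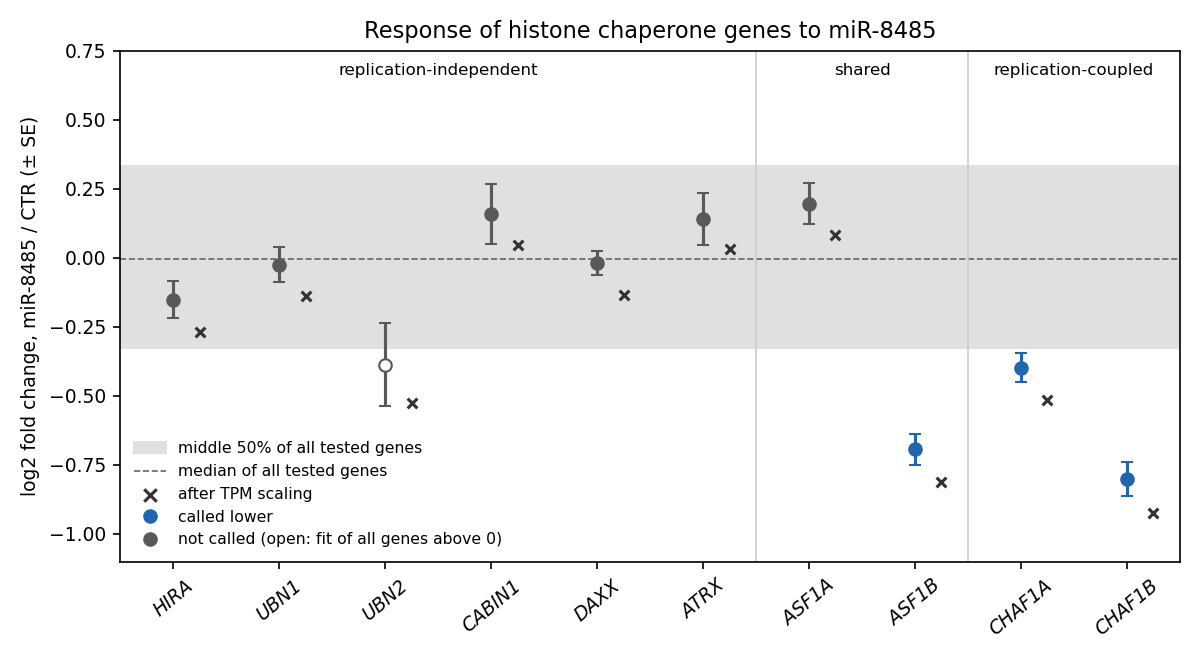
Log2 fold change of each gene between miR-8485 and CTR with its standard error (circles), beside the value after TPM scaling (crosses), the median of all tested genes (dashed line) and their middle 50% (grey). CHAF1A, CHAF1B and ASF1B lie below the grey band and were called, UBN2 lies below it and was not called, and the other members lie within it on the FPKM scale.

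To compare the routes within each library, log2(FPKM + 0.1) was averaged over the genes of each route, as a description with no test. Relative to the mean of CTR, the replication-coupled genes spanned -0.66 to -0.54 in miR-8485 and -0.021 to 0.029 in CTR. The 6 replication-independent genes spanned -0.075 to -0.027 in miR-8485 and -0.052 to 0.054 in CTR, so that their groups overlapped. The coupled average exceeded the independent average by 1.03, 0.97 and 0.97 in CTR replicates 1 to 3 and by 0.53, 0.43 and 0.36 in miR-8485 replicates 1 to 3. This gap narrowed by 0.55 on the log2 scale, and by 0.51 to 0.60 with any library left out. A difference within each library depends little on a scaling between libraries. In these bulk libraries, fewer cells in S phase and less mRNA per cell cannot be told apart.

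Ratios of paired members within a library likewise depend little on scaling. For 4 pairs the log2 ratio, taken on FPKM + 0.1, was compared between the groups with a two-sided exact permutation test, whose smallest p with 3 against 3 libraries is 0.1, so no pair could pass 0.05. The ratio of ASF1B to ASF1A was 3.08, 3.11 and 3.90 in CTR and 1.95, 1.84 and 1.62 in miR-8485, a difference of -0.89 in log2 (standard error 0.14). CHAF1B to CHAF1A was 0.556, 0.629 and 0.573 in CTR and 0.437, 0.433 and 0.4498 in miR-8485, a difference of -0.40 (standard error 0.06), so CHAF1B fell more than its partner in each library. UBN2 to UBN1 was 0.138, 0.122 and 0.116 in CTR and 0.0865, 0.105 and 0.0937 in miR-8485, a difference of -0.36 (standard error 0.10), or -0.19 with a pseudocount of 1. These 3 ratios did not overlap between the groups and had the smallest possible exact permutation p (0.133 after Benjamini-Hochberg adjustment over the 4 ratios). ATRX to DAXX was 0.0948, 0.0978 and 0.0822 in CTR and 0.107, 0.0945 and 0.106 in miR-8485, overlapping between the groups (difference 0.16, exact permutation p = 0.3).

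**Figure D3:**
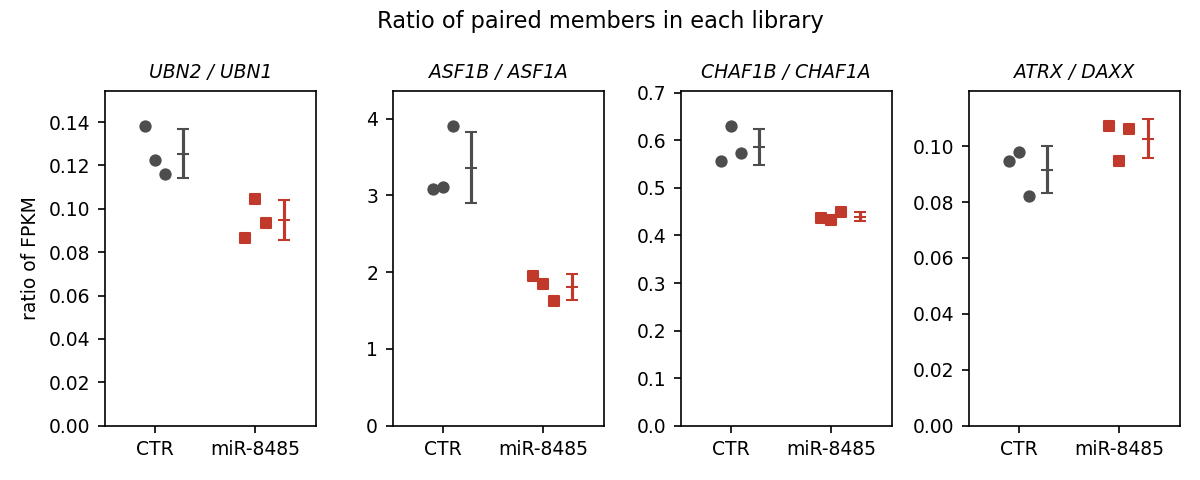
Ratio of the FPKM of paired members in each library (points) with mean ± SD of 3 libraries beside them, for CTR (circles) and miR-8485 (squares), each panel starting at 0. The ratios of UBN2 to UBN1, ASF1B to ASF1A and CHAF1B to CHAF1A are lower in every miR-8485 library, and those of ATRX to DAXX overlap.

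The order of levels changed only at a few places. In CTR it ran from ASF1B over DAXX, CHAF1A, ASF1A, UBN1, CHAF1B, CABIN1, HIRA and ATRX to UBN2, on the FPKM scale, which divides by the gene length of the table (2304 bases for ASF1B, 19266 for ATRX and 16386 for UBN2). Only the neighbours UBN1 and CHAF1B, and CHAF1B and CABIN1, overlapped between their CTR libraries. In miR-8485, DAXX had the highest mean, 27.2 ± 0.722 FPKM against 26.5 ± 0.779 FPKM for ASF1B (SD, n = 3 each). The miR-8485 libraries of these genes overlapped, and in replicate 1 ASF1B was the higher (26.6 against 26.4 FPKM). ASF1A passed CHAF1A with 14.8 against 10.5 FPKM, and CABIN1 passed CHAF1B with 8.06 against 4.63 FPKM.

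Lists of partner genes were examined next to the members. They were drawn up with earlier results of these data known. Their counts and medians are described beside the median of -0.0041 over all tested genes, of which 30.5% were downregulated and 29.1% upregulated. The fork partners of CAF-1 fell together. Of these 13 genes, 11 were downregulated and 0 upregulated in limma (0 also at an unadjusted p under 0.05 and in voom), with a median log2 fold change of -0.47. PCNA, the clamp that recruits CAF-1, had 206 ± 14.8 FPKM in CTR and 134 ± 5.12 FPKM in miR-8485 (SD, n = 3 each), a log2 fold change of -0.62 (adjusted p = 1.1e-04 in limma). RFC3, a subunit of the clamp loader, had the largest fall of the list, -0.82 (adjusted p = 1.7e-04 in limma). The members not called were RPA2 and RPA3, of the single-stranded DNA-binding complex, with -0.081 and 0.027.

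Of 12 genes that supply H3-H4 or work with ASF1, 11 were tested, 5 were downregulated, 2 upregulated and 4 not called (median -0.22). The shares over all tested genes were 30.5% downregulated and 29.1% upregulated. The Tousled-like kinases, which phosphorylate ASF1, moved in opposite directions. TLK1 fell from 4.71 ± 0.157 to 3.79 ± 0.290 FPKM (log2 fold change -0.31, adjusted p = 0.0092), and TLK2 rose from 5.58 ± 0.135 to 7.55 ± 0.552 FPKM (0.43, adjusted p = 0.0011 in limma). RBBP4 had the largest rise of this list. MMS22L, a partner of TONSL at damaged forks whose 3′ UTR held 21 copies of the seed match, fell by 0.74 (adjusted p = 0.0034), and HAT1, which acetylates newly made H4, fell by 0.50 (adjusted p = 7.4e-04 in limma). With a pseudocount of 1 the values were -0.45 for MMS22L and -0.47 for HAT1. TLK2, which rose, held 4 copies of the match. Among the other partner genes searched, CBX3 held 13 in its longest 3′ UTR, HJURP and CENPA held 2 each, and MCM2, ANP32E, H3-3B and CBX1 held 1 each. NASP, RBBP4, HAT1, TLK1, SUPT16H, VPS72, H3-3A, H2AX, PCNA, RFC3 and SUMO2 held 0 there. In the canonical 3′ UTR, however, TLK1 (2957 bases) and H3-3A (540 bases) held 1 copy each, and MCM2 (663 bases) held 0. HAT1 lies within a span shared with SLC25A12 on the other strand. NASP, which holds the reserve of soluble H3-H4, changed by -0.070 in log2 (adjusted p = 0.287) and was called lower after TPM scaling (-0.19, adjusted p = 0.0225). MCM2, the helicase subunit that binds parental H3-H4, had -0.22 (adjusted p = 0.0566), which was called without CTR replicate 1 (-0.31, adjusted p = 0.0042), after TPM scaling (-0.34, adjusted p = 0.0081), among genes of at least 5 FPKM (adjusted p = 0.0375) and by voom (adjusted p = 0.0134).

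Among 16 other histone chaperones the directions were mixed. Of the 15 tested, 3 were downregulated, 5 upregulated and 7 not called, with a median of -0.072, and 5 were downregulated without CTR replicate 1. The 5 of 15 upregulated lie near the 29.1% upregulated over all tested genes, of which 30.5% were downregulated. HJURP, the chaperone of the centromeric H3 variant, fell from 16.3 ± 0.691 to 8.21 ± 0.264 FPKM (SD, n = 3 each), a log2 fold change of -0.98 (adjusted p = 9.5e-06 in limma), the largest fall among the chaperones examined. Its cargo CENPA had -0.38 (adjusted p = 0.0159), in a span shared with SLC35F6 on the same strand. ANP32E, which removes H2A.Z, had -0.25 (adjusted p = 0.0058). The largest rises were those of SUPT16H, the large subunit of the chaperone FACT (0.43, adjusted p = 1.0e-04), and VPS72, which brings H2A.Z to the SRCAP and TIP60 complexes (0.41, adjusted p = 4.4e-04 in limma). SSRP1, the other FACT subunit, was not called (-0.084, adjusted p = 0.163 in limma). VPS72 shares 311 bases with SCNM1 on the other strand.

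The cargo of the HIRA and DAXX routes is encoded by H3-3A and H3-3B, which make the same protein, and these genes moved in opposite directions. H3-3A had 66.7, 62.7 and 63.5 FPKM in CTR and 115.5, 117.0 and 112.5 FPKM in miR-8485, or 0.84 ± 0.04 as log2 fold change with its SE (adjusted p = 6.8e-06 in limma). H3-3B had 177.6, 168.9 and 171.9 FPKM in CTR and 121.6, 118.7 and 115.7 FPKM in miR-8485, or -0.54 ± 0.04 as log2 fold change with its SE (adjusted p = 3.4e-05 in limma). Neither gene overlapped between the groups. The sum of both, computed after their values were seen, was 232 to 244 FPKM in CTR and 228 to 237 FPKM in miR-8485 and did overlap, while on the TPM scale it was 682 to 756 in CTR and 642 to 654 in miR-8485 and did not. H3-3A supplied 27.0% to 27.3% of this sum in CTR and 48.7% to 49.6% in miR-8485. Both genes have processed pseudogenes of near-identical sequence that could take part of their fragments, and H3-3B shares 1123 bases of its span with UNK on the other strand. Of 9 variant histone genes examined, 6 were downregulated, 1 was upregulated and 2 were not called (median -0.38). Over all tested genes 30.5% were downregulated and 29.1% upregulated. H2AX, the variant phosphorylated at DNA breaks, fell from 166 ± 5.17 to 114 ± 1.07 FPKM (SD, n = 3 each), or by -0.54 in log2 (adjusted p = 3.2e-05 in limma).

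The 11 partners of DAXX and ATRX had a median of 0.0018 in log2 fold change, with 4 downregulated, 1 upregulated and 6 not called. The 4 of 11 downregulated lie near the 30.5% downregulated over all tested genes, of which 29.1% were upregulated. The largest falls were those of CBX1 and CBX3, of the HP1 family that reads methylated H3 in heterochromatin, whereas the third HP1 gene, CBX5, was not called (11.4 ± 0.536 FPKM in CTR, 12.3 ± 0.494 FPKM in miR-8485, 0.11 in log2). CBX1 fell from 65.4 ± 0.948 to 16.8 ± 0.834 FPKM (SD, n = 3 each), a log2 fold change of -1.96 (adjusted p = 8.7e-07 in limma), and CBX3 had -0.83 (adjusted p = 5.8e-06 in limma). CBX3 shares 368 bases of its span with HNRNPA2B1 on the other strand. SUMO2, whose product modifies PML bodies where DAXX gathers and whose span is shared in part with JPT1 on the same strand, was the upregulated gene (0.18, adjusted p = 0.0072 in limma), and was not called after TPM scaling (0.062).

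**Figure D4:**
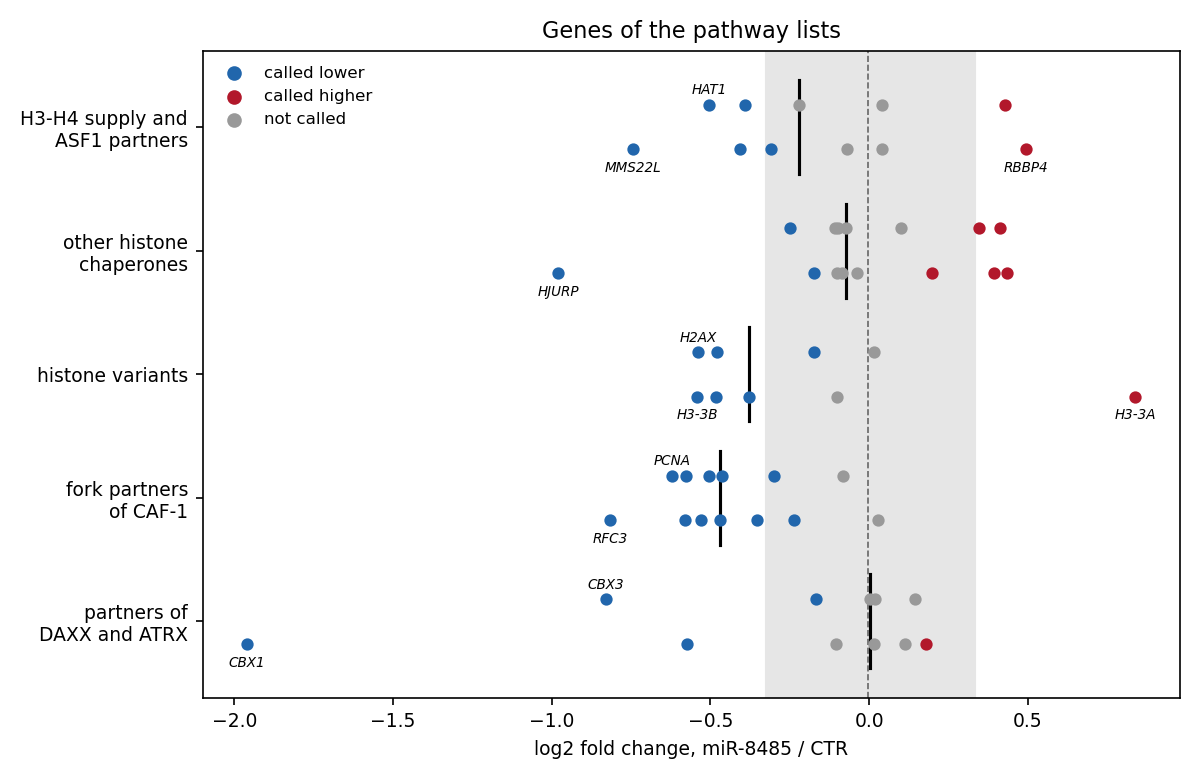
Log2 fold change between miR-8485 and CTR of the tested genes in 5 lists of partner genes, with 1 point per gene coloured by its call, a bar at the list median, and the median (dashed line) and middle 50% (grey) of all tested genes. Nearly all fork partners of CAF-1 lie to the left of the dashed line, spread around a list median of -0.47. H3-3A and H3-3B lie on opposite sides, and CBX1 lies farthest to the left at -1.96.

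E2F factors control many S-phase genes. The RefSeq promoters of the members (GRCh38.p14, 250 bases before to 50 after the start) were searched on both strands for the E2F forms TTTCCCGC, TTTGGCGC, TTTCGCGC and TTTGCCGC. Of the 10 members, 8 matched an entry. HIRA held 1 match, 45 bases before its start, shown in capitals.
HIRA promoter, chr22:19431760-19431789, minus strand: gtggggagcggTTTCCCGCcggggcgattt
The other 7 promoters, CHAF1A, CHAF1B and ASF1B among them, held 0 of these forms in this window, while 3.33% of all 27305 promoters and 5.67% of the 8766 promoters of tested genes held at least 1. Among the named partner genes with an entry, MCM2 held 2 matches and PCNA, RFC3, CENPA and CBX3 held 1 each. RBBP4, NASP, HAT1, MMS22L, TLK2, HJURP, SUPT16H, H3-3A, H3-3B, H2AX, CBX1 and SUMO2 held 0. The shorter motif CCAAT was found 4 times in the CHAF1A window, 3 times in that of ASF1B 2 times each in those of UBN1 and CABIN1, once in that of ASF1A and 0 times in those of CHAF1B, HIRA and UBN2. It was present in 35.7% of all promoters and 37.0% of those of tested genes. The forms TTTGAA and TTCGAA, known as the CHR element of cell cycle genes, were found once each in the ASF1B and CABIN1 windows, and in 16.6% of all promoters and 10.5% of those of tested genes.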

How the data were processed

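RNA-seq of 3 CTR and 3 miR-8485 libraries of HCT116 cells was used. Per the labels and the study's methods, the authors used fastp for trimming, aligned to hg38 by HISAT2 version 2.0.5, counted fragments per gene with featureCounts version 1.5.0-p3 and tested them with DESeq2. The authors deposited FPKM, with no further scaling between libraries. The annotation release is not given in the sources used here. In each library 100% of the values above 0 that correspond to at most 1000 fragments were whole multiples (within 0.05) of what 1 fragment is worth, so fragments were recovered.

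Because the values are FPKM, limma version 3.58.1 (R 4.3.3) with a variance trend was run on log2(FPKM + 0.1), two-sided, over all 12349 genes with a mean of at least 1 FPKM. This scale understates changes of low genes. UBN2 was taken from a fit to the 31768 genes above 0. The script was tested on simulated data. The members, lists and tests were chosen with earlier results of these data known. Named in the text are all members and, from each list, the 2 called genes that rose most and the 2 that fell most without overlap between the groups. A further 10 partners were named whatever their values. RPA2, RPA3, CBX5 and SSRP1 were added after their values were seen. 1 histone variant gene is not reported here and was left out of its list. Alternatives were other pseudocounts, filters and scalings, no variance trend, a replicate block, each library left out, voom on recovered fragments and a fold threshold. Removal of the trend against gene length was chosen after seeing the data. 3′ UTRs begin after the stop codon. Python 3.11.15 was used for the rest.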

Additional observations from a re-analysis of the deposited data

How the results depend on the processing

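The 3 downregulated members, CHAF1A, CHAF1B and ASF1B, were joined by HIRA after TPM scaling (4), and 2 remained with a log2 fold change of at least 0.5, where CHAF1A drops out by construction. The count, which is over members that pass the filter and so leaves out UBN2, was 3 under the other alternatives run. With UBN2 it was 4 with no variance trend and under both voom settings. The number of upregulated members, 0, became 1 (ASF1A) with genes of at least 5 FPKM, median-of-ratios scaling, quantile normalization and voom on the same genes, 0 to 1 with 1 library left out, and 2 (CABIN1 and ATRX) with the gene length trend removed. The cause was not tested. Over all genes, a filter at 5 FPKM, which tests fewer genes, gave 2417 downregulated and 2303 upregulated, and a log2 fold change of at least 0.5 gave 1856 and 1789. UBN2 was called with no variance trend (-0.39, adjusted p = 0.0432), with voom on all genes above 0 (-0.43) and with voom on genes with at least 10 fragments (-0.43). Its log2 fold change was -0.44 to -0.33 with each library left out, -0.21 with a pseudocount of 1, which shrinks low genes by construction, and -0.28 with the gene length trend removed. UBN1 (-0.082 to 0.0077 with each library left out) changed sign with the gene length trend removed (0.077), quantile normalization (0.026), and without CTR replicate 2 (0.0077) or 3 (9.3e-04), DAXX (-0.038 to 0.0036) without miR-8485 replicate 1 and NASP with the gene length trend removed (0.028); none of these was called. CENPA was lost with no filter (adjusted p = 0.0517), and 7 other chaperones were downregulated after TPM scaling. The directions of the 4 pair ratios and of the gap between the routes held with each library left out and with either other pseudocount.

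The deviations of same-numbered libraries correlated by 0.067, 0.033 and -0.064, which cannot tell whether same-numbered cultures were handled together. Among differently numbered libraries the highest value was 0.061, for CTR replicate 2 and miR-8485 replicate 3. With the replicate block, 3754 genes were downregulated and 3634 upregulated, the members' counts were 3 and 0, and MCM2 was called (adjusted p = 0.0142). Depth was lowest for UBN2, at 225 to 343 fragments per library, and HIRA, at 281 to 328.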
